A study of Mus musculus with 2 samples.

Results

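The genes described here are the solute carriers, the largest superfamily of membrane transporters, in regulatory T cells of the mouse colon. Members were chosen by their reads: protein-coding genes whose symbol starts with Slc and a family number, with 50 or more reads over the 2 libraries of the series. Of 371 such genes in the deposited table, 187 met the minimum, 103 had 1 to 49 reads and 81 had none. The minimum was applied to the sum of both libraries and not to their difference, but a gene with few reads in 1 library could pass only by being high in the other. There were 18 members with under 25 reads in 1 library, and 11 of these 18 were past the 2-fold difference used below. Just inside the minimum was Slc23a3 (27 WT reads, 23 Exon2KO reads). Just outside it was Slc4a5 (21 and 26).

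Regulatory T (Treg) cells restrain immune responses and are defined by the transcription factor Foxp3. Here they came from female mice, from the lamina propria of the colon, the tissue below its epithelium. One library was made from wild-type (WT) cells and the other from cells labelled Exon2KO, which carry a Foxp3 allele without exon 2, also written Foxp3∆2. Both libraries come from the same tissue, sex and labelled cell type. The labels used here give no age, no number of mice and no sorting scheme. With 1 library per genotype no difference has a replicate check, the effect of the genotype and that of mouse or preparation cannot be told apart, and intervals cover counting error only.

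Solute carriers move amino acids, sugars, ions, metals, vitamins and metabolites across the plasma membrane and the membranes of organelles. In T cells, amino acid carriers and glucose carriers are known to be induced on activation, lactate leaves the cell through monocarboxylate carriers, and the carriers of the inner mitochondrial membrane connect the cytosol with respiration. Many other solute carriers are known as genes of the absorptive gut epithelium, which lies next to the lamina propria.

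The libraries held 16281133 (WT) and 15412425 (Exon2KO) reads assigned to genes. The T cell genes Cd3e (5154 and 5262 reads in WT and Exon2KO), Cd4 (4593 and 5367) and Foxp3 (6991 and 20946) had many reads in both. Of the 12 genes of the Treg and T cell list, 7 had a ratio below 0. Foxp3 was past 2-fold higher in Exon2KO, and 3 were past 2-fold lower: Ikzf2, which encodes Helios (8476 and 440 reads), and the receptor genes Tnfrsf18 (34363 and 11626) and Tnfrsf4 (66016 and 25936). Counts per gene do not show whether exon 2 of Foxp3 was read. Of 17 markers of colon epithelium, 11 of the 13 with 50 or more reads were 2-fold or more higher in Exon2KO and none lower. Over all protein-coding genes with 50 or more reads these shares were 3.98% and 4.90%. Some of the 11 passed the read minimum only through Exon2KO, such as Fabp2 (0 and 169 reads), Vil1 (9 and 56) and Phgr1 (17 and 166), so their count supports nothing about the list. All 17, without a minimum, summed to 98.2 CPM in WT and 512 in Exon2KO (CPM are counts relative to the library size, scaled with TMM factors). All 17 had reads in at least 1 library, and Fabp2, Aqp8 and Cldn4 were at 0 in 1 of them. The 9 myeloid markers summed to 45.2 CPM in WT and 53.5 in Exon2KO, the 9 stromal and endothelial markers to 76.1 and 70.4, the 7 goblet cell markers to 20.8 and 23.9, and the 8 B and plasma cell markers to 33991 and 28286. Near-equal sums do not mean that single markers were equal. Among goblet cell markers Clca1 had 105 reads in WT and 7 in Exon2KO, and Zg16 41 and 137. Pecam1 alone held 58.4 CPM of the stromal and endothelial sum in WT and 52.2 in Exon2KO. The T cell list, at 18059 and 18119 CPM, held fewer CPM than the B and plasma cell list.

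As a group the solute carriers differed little between the libraries. Log2 ratios, here always Exon2KO over WT of the scaled counts with a prior count of 2, had a median of -0.04 over the 187 members (quartiles -0.35 and 0.20; median 0.061 with total counts), against -0.02 (-0.28 and 0.21) over all 10602 protein-coding genes with 50 or more reads. The difference was 2-fold or more for 20 members, 8 higher and 12 lower in Exon2KO. That is 4.28% of the members higher, against 3.98% of the 10602 genes, and 6.42% lower, against 4.90%. Shares this near the background are no result about the family, and the differences lie in single members. The same 3.98% and 4.90% stand behind each class count below, and counts in classes this small are descriptions. With total counts in place of TMM factors, which raises the log2 ratio of the 10602 genes by a median of 0.105, 11 members were higher and 9 lower. Of the members, 99 (52.9%) lay within 1.25-fold of equality, against 59.9% of the 10602 genes. In the authors' deposited table, 3 members were higher and 8 lower with an adjusted p-value below 0.05, beside 2.14% and 2.57% of the same 10602 genes. These 11 were all among the 20, and with 1 library per genotype such p-values can only assume a spread between samples. An assumed coefficient of variation of 0.2 in edgeR's exact test called the same 11.

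**Figure D1:**
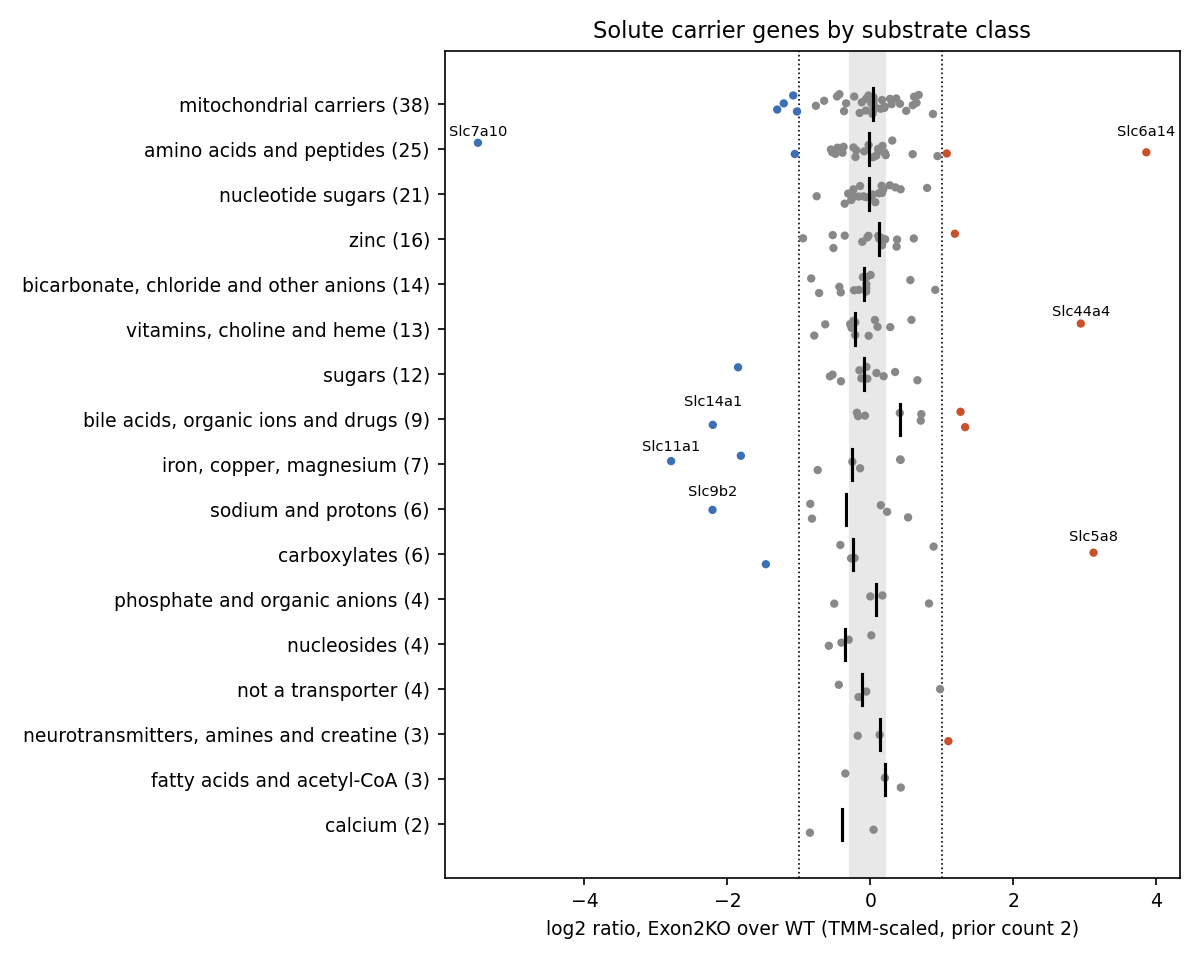
Log2 ratio of Exon2KO over WT (x axis) for each of the 187 solute carrier genes (points) by substrate class (y axis, number of genes in brackets); black bars are class medians, dotted lines mark 2-fold, the grey band is the interquartile range of all 10602 protein-coding genes with 50 or more reads, and points past 2-fold are orange (higher) or blue (lower). The nucleotide sugar class has 0 of 21 genes past 2-fold, and Slc7a10 (-5.49, a value set by the prior count) and Slc6a14 (3.86) lie at the ends of the amino acid class.

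Members also differed widely in level. Per length, in the FPKM values deposited by the authors, the mean of both libraries ran from 0.130 to 431 with a median of 2.79. It was over 10 for 32 members and under 1 for 45. Of the 20 members past 2-fold, 19 had a mean FPKM of 10 or less and 13 had fewer than 200 reads over both libraries. Among the 130 members with 200 or more reads, 5.38% were past 2-fold, against 5.59% of the 8402 protein-coding genes with as many reads. The members' share of all reads was 0.939% in WT and 0.845% in Exon2KO, with 95% Wilson intervals of 0.934 to 0.943 and 0.840 to 0.849. Without Slc25a3 the shares were 0.722% and 0.707%.

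The promoters of 5 members past 2-fold are shown because they stand for both directions: 3 genes known from the absorptive colon epithelium (Slc6a14, Slc5a8 and Slc44a4), which were higher in Exon2KO, and the lactate carrier gene Slc16a3 and the hexose carrier gene Slc2a6, which were lower. Sequences are from RefSeq (GRCm38.p6), 5′ to 3′ on the strand of the gene, from 250 bases before to 50 after the start site. They cover chrX:21714650-21714949 (plus strand), chr10:88885742-88886041 (plus), chr17:34914216-34914515 (plus), chr11:120948817-120949116 (plus) and chr2:27027949-27028248 (minus). The start site lies 4 bases from the deposited gene start for Slc6a14, 587 for Slc16a3 and 0 for the others. Capitals mark matches to 1 of 5 motifs, each searched on both strands. The forkhead motif was GTAAACA and the AP-1 motif TGANTCA. For the hypoxia response core the letters were ACGTG, which the E-box CACGTG also holds. For the gut factors, a half-site of HNF1 was written GTTAAT and the site of HNF4 CAAAGTCCA.
Slc6a14: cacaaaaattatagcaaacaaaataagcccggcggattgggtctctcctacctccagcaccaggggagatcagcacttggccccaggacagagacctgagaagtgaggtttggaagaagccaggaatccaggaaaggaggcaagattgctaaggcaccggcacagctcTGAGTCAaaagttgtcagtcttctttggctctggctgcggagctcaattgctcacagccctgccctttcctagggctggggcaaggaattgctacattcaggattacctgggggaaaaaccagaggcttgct
Slc5a8: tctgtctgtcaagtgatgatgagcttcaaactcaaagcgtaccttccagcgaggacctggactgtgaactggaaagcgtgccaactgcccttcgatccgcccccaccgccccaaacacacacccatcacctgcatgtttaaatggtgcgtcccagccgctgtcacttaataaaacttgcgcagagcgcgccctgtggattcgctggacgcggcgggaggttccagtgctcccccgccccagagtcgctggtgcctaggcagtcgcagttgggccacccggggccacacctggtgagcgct
Slc44a4: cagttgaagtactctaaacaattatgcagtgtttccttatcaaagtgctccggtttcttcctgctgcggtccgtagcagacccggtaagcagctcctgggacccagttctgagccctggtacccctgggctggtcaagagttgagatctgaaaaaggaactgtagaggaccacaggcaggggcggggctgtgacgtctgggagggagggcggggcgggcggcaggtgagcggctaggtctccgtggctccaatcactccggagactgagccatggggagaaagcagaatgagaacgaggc
Slc16a3: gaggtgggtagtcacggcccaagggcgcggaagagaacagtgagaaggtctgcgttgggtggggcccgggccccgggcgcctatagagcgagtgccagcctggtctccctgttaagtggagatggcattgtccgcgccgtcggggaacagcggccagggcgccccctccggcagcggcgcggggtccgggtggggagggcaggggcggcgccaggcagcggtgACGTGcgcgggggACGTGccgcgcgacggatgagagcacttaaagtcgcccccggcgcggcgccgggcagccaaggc
Slc2a6: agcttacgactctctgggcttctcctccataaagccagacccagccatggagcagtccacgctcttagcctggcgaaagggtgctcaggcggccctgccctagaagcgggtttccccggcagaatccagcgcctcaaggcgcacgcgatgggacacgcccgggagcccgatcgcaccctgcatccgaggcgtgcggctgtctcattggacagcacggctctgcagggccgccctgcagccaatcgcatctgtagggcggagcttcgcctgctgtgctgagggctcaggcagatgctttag

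Slc6a14 holds 1 AP-1 match that starts 82 bases before the start site (TGAGTCA), and Slc16a3 holds 2 hypoxia response cores that start 27 and 14 bases before it. No match to the 5 motifs is in the other 3 windows shown. The windows of Slc7a10, Slc11a1, Slc25a3 and Slc25a5 were also searched and are not shown. Slc25a3 holds a hypoxia response core that starts 156 bases before its start site, and the others hold no match. Over all 32851 RefSeq promoters of this length, 19.6% hold the hypoxia core, 7.81% the AP-1 motif, 7.10% the HNF1 half-site, 3.65% the forkhead motif and 0.475% the HNF4 site. The table has 192 promoters for 143 of the 187 members, and of these 28.1%, 5.21%, 3.65%, 0.521% and 0 hold them in the same order.

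Amino acid carriers were the members with both the lowest and the highest ratio. Of 25 members that carry amino acids or peptides, 2 were past 2-fold higher and 2 lower, against 3.98% and 4.90% of all 10602 genes, and the median was -0.02 (0.07 with total counts). The heavy chain gene Slc3a2, which encodes CD98, the subunit that brings several Slc7 light chains to the cell surface, had 15852 reads in WT and 13711 in Exon2KO (ENSMUSG00000010095, chromosome 19, 8706882 to 8723369 on the minus strand, GRCm38). Its FPKM of 285 and 244 placed it at rank 3 of all members, and its log2 ratio was -0.24 (95% interval -0.27 to -0.20). Its partners for large neutral and for cationic amino acids were far lower per length. Slc7a5, the leucine carrier LAT1, had an FPKM of 14.4 in WT and 10.6 in Exon2KO, and Slc7a6 7.82 and 8.11. The log2 ratios of these light chain genes were -0.46 (-0.61 to -0.31) and 0.04 (-0.13 to 0.21). They do not stand for all Slc7 genes. The 6 members with the Slc7 prefix ran from -5.49 to 0.94, 2 above 0 and 4 below.

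Slc7a10 encodes a further CD98 partner, Asc-1, which exchanges small neutral amino acids. It had 87 reads in WT and 0 in Exon2KO (ENSMUSG00000030495, chromosome 7, 35186385 to 35201114 on the plus strand), or 5.54 CPM against an upper 95% limit of 0.231 CPM. The 95% interval of the log2 ratio has no lower end and an upper end of -4.56. Exons of Lrp3 cover 17.9% of its exonic bases, and the reads in these cannot be assigned without strand, the use of which is not given in the sources used here.

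The glutamine carriers differed less. Slc1a5 (ASCT2) had 6568 reads in WT and 6304 in Exon2KO at an FPKM of 99.8 and 94.9, and a log2 ratio of -0.09 that turns to 0.02 with total counts. Slc38a2, a carrier of small neutral amino acids that cells induce on starvation, had 4018 and 4603 reads (0.17, 0.11 to 0.23), while its relative Slc38a1 had 2115 and 1488 (-0.53, -0.63 to -0.44). The cationic amino acid carrier Slc7a1 was at -0.21 (-0.32 to -0.09), and Slc38a9, the lysosomal arginine sensor of the mTORC1 pathway, at 0.20 (-0.02 to 0.42). Among peptide and histidine carriers, the lysosomal Slc15a3 was at 0.59 (0.47 to 0.72), Slc15a4 at -0.39 (-0.69 to -0.09) and the surface carrier Slc15a2 at -0.49 (-0.67 to -0.32). Exons of Tmem132a cover 28.1% of Slc15a3.

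The other 3 amino acid carriers past 2-fold had few reads. Slc6a14, a sodium- and chloride-driven carrier of neutral and cationic amino acids known from colon epithelium (ENSMUSG00000031089, chromosome X, 21714896 to 21742355 on the plus strand), had 6 reads in WT and 116 in Exon2KO. That is 0.382 CPM (0.140 to 0.832) against 7.26 CPM (6.0 to 8.70), a log2 ratio of 3.86 (3.08 to 5.72). Slc36a4, a high-affinity carrier of proline and tryptophan, had 72 and 156 reads (1.07, 0.68 to 1.51), and Slc43a1, a leucine carrier named here to complete the count, 43 and 20 (-1.06, -1.97 to -0.33). Slc43a1 was short of 2-fold with total counts and with a prior count of 5, at -0.96 in each.

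**Figure D2:**
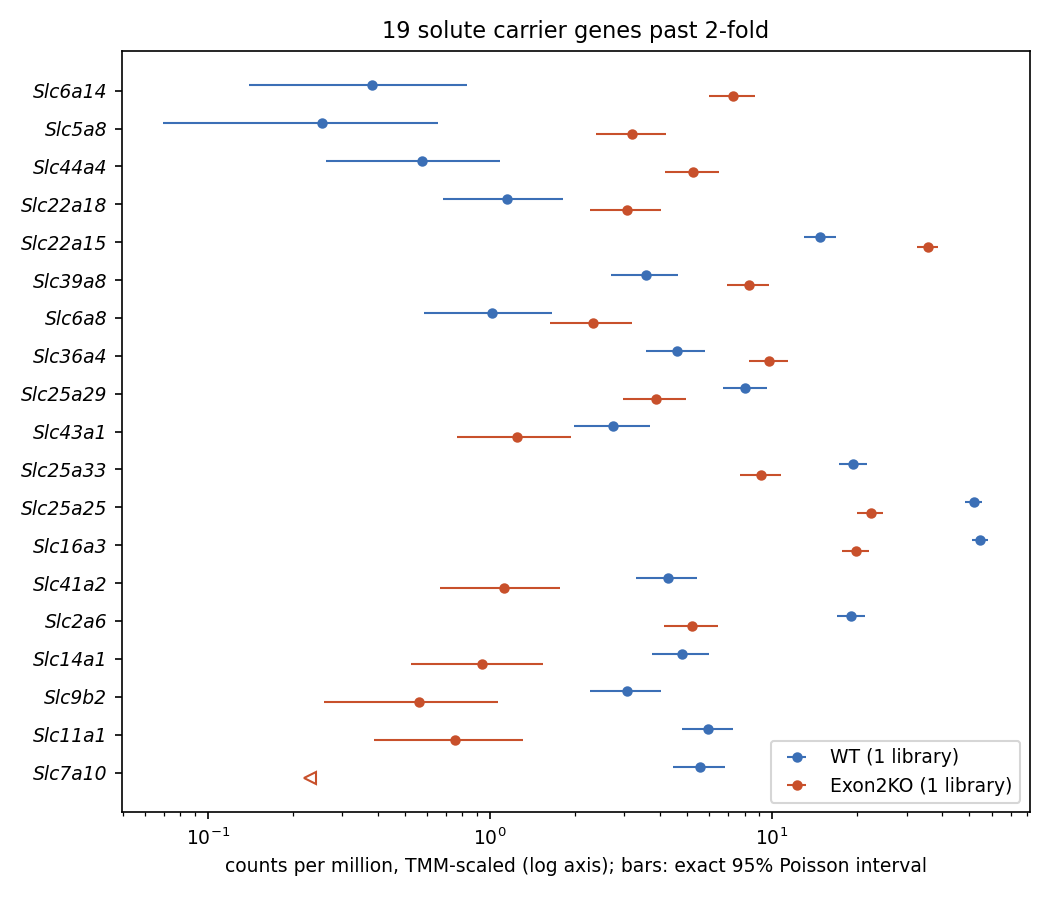
Scaled level in CPM (x axis, log scale) of 19 of the 20 solute carrier genes past 2-fold (y axis, ordered by ratio) in the WT library (blue) and the Exon2KO library (orange); bars are exact 95% Poisson intervals, and the open triangle is the upper limit of Slc7a10, which had 0 reads in Exon2KO. Slc16a3, at 54.7 and 19.8 CPM, has the highest WT level of the genes drawn, most of which lie below 10 CPM.

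The Slc25 family, most of which are carriers of the inner mitochondrial membrane, formed the class with the most members and the most reads. It also holds genes of other membranes, such as Slc25a17 of peroxisomes and Slc25a46 of the outer mitochondrial membrane. Of the 38 members, 4 were past 2-fold lower and 0 higher, against 4.90% and 3.98% of all 10602 genes, with a median of 0.04 (0.14 with total counts). Their summed level was 4094 CPM in WT and 3039 in Exon2KO, and without Slc25a3 it was 1849 and 1715. Slc25a3, the phosphate carrier that supplies ATP synthase, had 35244 reads in WT and 21171 in Exon2KO, the most of any member (ENSMUSG00000061904, chromosome 10, 91116574 to 91124059 on the minus strand). Its log2 ratio was -0.76 (-0.79 to -0.74), short of 2-fold. Slc25a5, which encodes the ADP/ATP translocase ANT2, had 10379 and 12113 reads and a log2 ratio of 0.20 (0.16 to 0.23).

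These carriers bring ATP synthase its substrates, phosphate and ADP, and per length they were the members with the most reads. In WT their FPKM values were equal to within 1% (403 for Slc25a3 and 400 for Slc25a5, a quotient of 1.01), and in Exon2KO they were 240 and 463 (0.518). The quotient within a library does not depend on the scaling. The paralog Slc25a4 (ANT1) had 42.8 and 44.6 FPKM (log2 ratio 0.04, -0.05 to 0.15). The sequences of Slc25a4 and Slc25a5 are much alike, which makes the assignment of reads to one or the other uncertain.

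The mitochondrial carriers past 2-fold included Slc25a25, Slc25a33 and Slc25a29. Slc25a25, a calcium-regulated carrier that exchanges ATP-Mg for phosphate, had 814 and 357 reads (-1.21, -1.40 to -1.03). Its relative Slc25a24 went the other way, with 124 and 203 reads (0.68, 0.36 to 1.02). The pyrimidine nucleotide carrier Slc25a33 had 305 and 146 reads (-1.08, -1.38 to -0.80), and its paralog Slc25a36 662 and 430 (-0.65, -0.83 to -0.47). Slc25a29, a carrier of basic amino acids, had 126 and 62 reads (-1.03, -1.51 to -0.60). With total counts Slc25a33 and Slc25a29 were short of 2-fold, at -0.97 and -0.92, and with a prior count of 5 Slc25a29 was at -0.99. The highest ratio of the class was that of the ornithine carrier Slc25a15, with 28 and 54 reads (0.88, 0.24 to 1.63).

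Other carriers of the class, named for their known roles, were nearer to equality. The citrate carrier Slc25a1 was at 0.04 (-0.11 to 0.20), the oxoglutarate carrier Slc25a11 at 0.05 (-0.08 to 0.17), the carnitine-acylcarnitine carrier Slc25a20 at 0.03 (-0.11 to 0.16) and the dicarboxylate carrier Slc25a10 at 0.16 (-0.17 to 0.50). The aspartate-glutamate carriers Slc25a12 and Slc25a13 were at -0.06 (-0.27 to 0.14) and 0.36 (-0.27 to 1.04). Slc25a39, which imports glutathione, was at -0.06 (-0.20 to 0.08), and Slc25a51, which imports NAD, at -0.23 (-0.35 to -0.10). Slc25a38, which imports glycine for heme synthesis, was at -0.37 (-0.51 to -0.23).

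**Figure D3:**
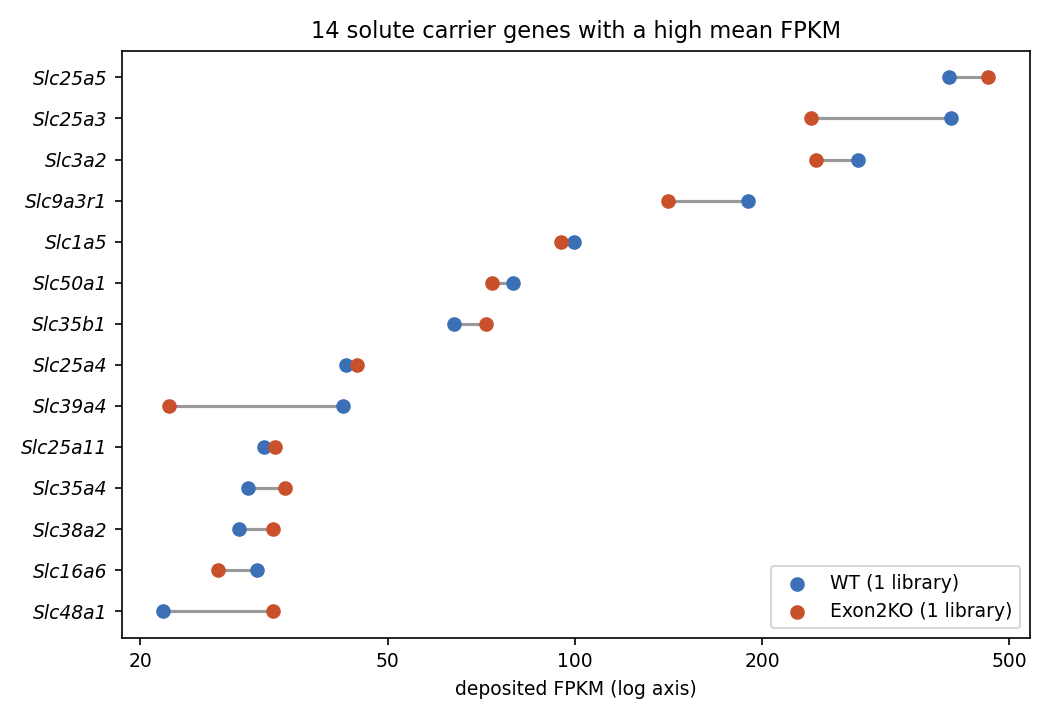
Deposited FPKM (x axis, log scale) of 14 of the 15 solute carrier genes with the highest mean of both libraries (y axis), in the WT library (blue) and the Exon2KO library (orange). Slc25a3 and Slc25a5 coincide in WT at 403 and 400 and lie apart in Exon2KO at 240 and 463, and Slc39a4, at 42.3 and 22.2, shows the widest gap of the genes drawn.

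In the Slc2 family of hexose carriers, 4 of 5 members had a ratio below 0, as did 5586 of the 10602 protein-coding genes (Slc2 median -0.53, or -0.42 with total counts), and 1 was past 2-fold. In the Slc16 family of monocarboxylate carriers 4 of 5 were below 0 (median -0.27), with 1 past 2-fold. With 5 members each, these counts are a description of the members. Slc2a6, a hexose carrier (GLUT6) found largely on internal membranes, had 299 reads in WT and 83 in Exon2KO (ENSMUSG00000036067, chromosome 2, 27021363 to 27027998 on the minus strand). That is 19.1 CPM (17 to 21.3) against 5.19 (4.13 to 6.44), a log2 ratio of -1.85 (-2.24 to -1.52). The main glucose carriers of T cells were short of 2-fold: Slc2a1 (GLUT1) had 1029 and 708 reads (-0.56, -0.71 to -0.43) and Slc2a3 (GLUT3) 665 and 469 (-0.53, -0.70 to -0.36). Slc2a9, a urate carrier, had 31 and 51 reads (0.66, 0.02 to 1.38).

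Among the other sugar carriers, Slc50a1 had the highest level, 79.6 FPKM in WT and 73.7 in Exon2KO (-0.13, -0.22 to -0.03). The 4 members of the Slc37 family ran from -0.05 (Slc37a1) to 0.35 (Slc37a4, the glucose phosphate carrier of the endoplasmic reticulum). The myo-inositol carrier Slc5a3 was at 0.19 (0.04 to 0.33).

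Slc16a3 encodes MCT4, the lactate exporter of glycolytic cells. It had 858 reads in WT and 316 in Exon2KO (ENSMUSG00000025161, chromosome 11, 120948480 to 120960868 on the plus strand), 54.7 CPM (51.1 to 58.5) against 19.8 (17.6 to 22.1), a log2 ratio of -1.46 (-1.66 to -1.28). Slc16a1 (MCT1), which carries lactate in both directions, had 681 and 518 reads (-0.42, -0.59 to -0.25). Slc16a6, the monocarboxylate carrier gene with the highest FPKM, 30.8 and 26.7, was at -0.22 (-0.31 to -0.14), and exons of other genes cover 23.5% of it. Slc16a5 was higher, with 31 and 60 reads (0.88, 0.28 to 1.60).

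The remaining carboxylate carrier, Slc5a8, takes up short-chain fatty acids in colon epithelium. It had 4 reads in WT and 51 in Exon2KO (ENSMUSG00000020062, chromosome 10, 88885992 to 88929515 on the plus strand), 0.255 CPM (0.0694 to 0.653) against 3.19 (2.38 to 4.19), and a log2 ratio of 3.12 (2.20 to 5.58).

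Zinc carriers lay on both sides of equality: 1 of 16 was past 2-fold, and the median was 0.12 (0.22 with total counts). Slc39 proteins bring zinc into the cytosol and Slc30 proteins remove it. The importer gene Slc39a4 (ZIP4), known for zinc uptake in the gut, had by far the highest level of the class, 42.3 FPKM in WT and 22.2 in Exon2KO, with 2072 and 1098 reads (-0.94, -1.05 to -0.84). Slc39a8 (ZIP8), which also carries manganese, had 56 and 132 reads (1.18, 0.75 to 1.69). The surface exporter gene Slc30a1 had 592 and 418 reads (-0.53, -0.71 to -0.35). The exporters of the secretory pathway went both ways, with Slc30a7 at -0.52 (-0.72 to -0.32), Slc30a5 at 0.16 (0.00 to 0.32) and Slc30a6 at 0.37 (0.14 to 0.61).

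Of 7 carriers of iron, copper and magnesium, 2 were past 2-fold lower, against 4.90% of all genes, which for so few members is a description. Slc11a1 (NRAMP1), a metal exporter of the phagosomes of macrophages (ENSMUSG00000026177, chromosome 1, 74375195 to 74386062 on the plus strand), had 93 reads in WT and 12 in Exon2KO, 5.93 CPM (4.78 to 7.26) against 0.751 (0.388 to 1.31), and a log2 ratio of -2.79 (-3.98 to -2.11). Of the 9 myeloid markers, summed above, 4 had a ratio above 0 and 5 below. Lyz2 had 317 and 405 reads, Cd68 168 and 243, Cd14 122 and 116, C1qb 52 and 51 and C1qa 21 and 19, and Csf1r and Mpeg1 had 14 and 12 reads in WT and 6 each in Exon2KO. Of the 4 with 50 or more reads none was past 2-fold. The part of myeloid cells in the value of Slc11a1 was not tested. Slc11a2 (DMT1), the iron importer of most cells, was at 0.42 (0.18 to 0.67). The magnesium carrier gene Slc41a2, named to complete the count, had 67 and 18 reads (-1.81, -2.76 to -1.16), against -0.25 (-0.42 to -0.09) for Slc41a1 and 0.42 (0.16 to 0.68) for Slc41a3. The copper importer Slc31a1 was at -0.14 (-0.32 to 0.03).

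The carriers of bicarbonate, chloride and other anions had 0 of 14 members past 2-fold, with a range of -0.83 (Slc26a10) to 0.91 (Slc4a11, 20 and 40 reads). With total counts Slc4a11 was at 1.01. Of the 6 exchangers of sodium and protons, Slc9b2 was past 2-fold, with 48 WT reads and 9 Exon2KO reads (-2.21, -3.65 to -1.40). The organelle exchangers Slc9a9 and Slc9a7 were at -0.84 (-1.04 to -0.65) and -0.82 (-1.20 to -0.46). The mitochondrial sodium-calcium exchanger Slc8b1 was at -0.85 (-1.32 to -0.42).

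Among 9 carriers of bile acids, organic ions and urea, 2 were past 2-fold higher and 1 lower, against 3.98% and 4.90% of all genes, which for so few members is a description. Slc22a15, a carrier of organic zwitterions, had 232 reads in WT and 569 in Exon2KO, 14.8 CPM (12.9 to 16.8) against 35.6 (32.7 to 38.6), a log2 ratio of 1.26 (1.04 to 1.49). Of the 8 members past 2-fold higher it had the most reads. Slc22a18 had 18 and 49 reads (1.33, 0.61 to 2.29), and the carnitine importer Slc22a5 196 and 177 (-0.17, -0.48 to 0.13). The urea carrier Slc14a1 had 75 and 15 reads (-2.20, -3.26 to -1.54).

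Carriers of vitamins, choline and heme had 1 of 13 members past 2-fold, the epithelial gene Slc44a4. It is a choline-like transporter known for the uptake of thiamine pyrophosphate in the colon, and had 9 reads in WT and 84 in Exon2KO (ENSMUSG00000007034, chromosome 17, 34914466 to 34930436 on the plus strand), 0.573 CPM (0.262 to 1.09) against 5.25 (4.19 to 6.50), a log2 ratio of 2.94 (2.20 to 4.37). The heme carrier of lysosomes Slc48a1 had 943 and 1432 reads (0.57, 0.46 to 0.70). The riboflavin carriers differed from each other: Slc52a3 had 431 and 254 reads (-0.78, -1.02 to -0.56) and Slc52a2 530 and 531 (-0.02, -0.20 to 0.15). The folate carrier Slc19a1 was at 0.28 (0.05 to 0.51), the choline carrier Slc44a2 at -0.63 (-0.76 to -0.50) and the ascorbate carrier Slc23a2 at -0.28 (-0.44 to -0.13).

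The nucleotide sugar class had the narrowest range of ratios among classes of 10 or more. It is the whole Slc35 family, and not every member is known to carry nucleotide sugars in the Golgi or endoplasmic reticulum. None of 21 members was past 2-fold, 16 were within 1.25-fold, and the range was -0.75 (Slc35g1) to 0.79 (Slc35f2, 130 and 231 reads). Slc35b1, which brings ATP into the endoplasmic reticulum, had the highest level, 63.9 and 71.9 FPKM (0.16, 0.08 to 0.24), followed by Slc35a4 with 29.8 and 34.1 (0.18, 0.08 to 0.28). The carriers for sialic acid (Slc35a1), galactose (Slc35a2) and fucose (Slc35c1), used to build the glycans of surface proteins, were at 0.12 (-0.13 to 0.37), -0.06 (-0.27 to 0.14) and -0.16 (-0.47 to 0.13).

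The small classes held 1 further member past 2-fold. Slc6a8, the creatine carrier, had 16 reads in WT and 37 in Exon2KO (1.09, 0.30 to 2.13) and is named to complete the count. With a prior count of 5 it was short of 2-fold, at 0.98. The nucleoside carriers Slc28a2 and Slc29a1 were at -0.41 (-0.55 to -0.26) and 0.01 (-0.12 to 0.15), the phosphate importers Slc20a1 and Slc20a2 at 0.17 (0.02 to 0.32) and 0.82 (0.41 to 1.27), and the acetyl-CoA carrier Slc33a1 at 0.43 (0.08 to 0.79). A further 4 members carry the Slc prefix but are not transporters. Among them, Slc9a3r1, the scaffold protein NHERF1, was at rank 4 of all members by FPKM, with 190 in WT and 141 in Exon2KO (-0.44, -0.50 to -0.38). The others, Slc9a3r2, Slc4a1ap and Slc7a6os, were at 0.97 (0.38 to 1.69), -0.17 (-0.36 to 0.02) and -0.06 (-0.16 to 0.05).

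The 3 highest ratios of all members belonged to Slc6a14, Slc5a8 and Slc44a4, which are on a list of 29 transporters of colon epithelium. The list had 10 members with 50 or more reads, 14 genes with 1 to 49 and 5 with 0 reads in both libraries. Of the 10 members, 3 were past 2-fold higher and 0 lower, against 3.98% and 4.90% of all genes, with a median of 0.33. These 3 passed the read minimum through Exon2KO, where they are high, with 4 to 9 reads in WT, so their count supports nothing about the list. Outside the list, 5 of 177 members were higher and 12 lower. The list did not move as 1 block. Slc39a4 (-0.94), Slc52a3 (-0.78) and Slc26a2, the sulfate carrier (1451 and 1109 reads, -0.41, -0.53 to -0.30), were below 0. Slc12a2, the sodium-potassium-chloride carrier, had 142 and 139 reads (-0.06, -0.41 to 0.29). Slc26a6 (54 and 82 reads), Slc51a (19 and 33) and Slc23a1 (42 and 46) were at 0.56 (0.06 to 1.10), 0.71 (-0.09 to 1.67) and 0.10 (-0.53 to 0.74).

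Of the 17 epithelial marker genes, 14 had a ratio above 0. Among them Krt8 had 160 reads in WT and 1604 in Exon2KO, Krt19 81 and 1430, Car1 24 and 1830, and Krt20 only 31 and 36. Epcam (782 and 609 reads), Car4 (5 and 2) and Cldn4 (1 and 0) were not higher. Of the 7 goblet cell markers 3 had a ratio above 0, and Clca1 (105 and 7 reads) and Muc2 (41 and 21) were among those below. The part of epithelial RNA in the values of Slc6a14, Slc5a8 and Slc44a4 was not tested. In bulk samples such as these, more cells of a type and more RNA per cell cannot be told apart, nor can fewer cells and less RNA.

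**Figure D4:**
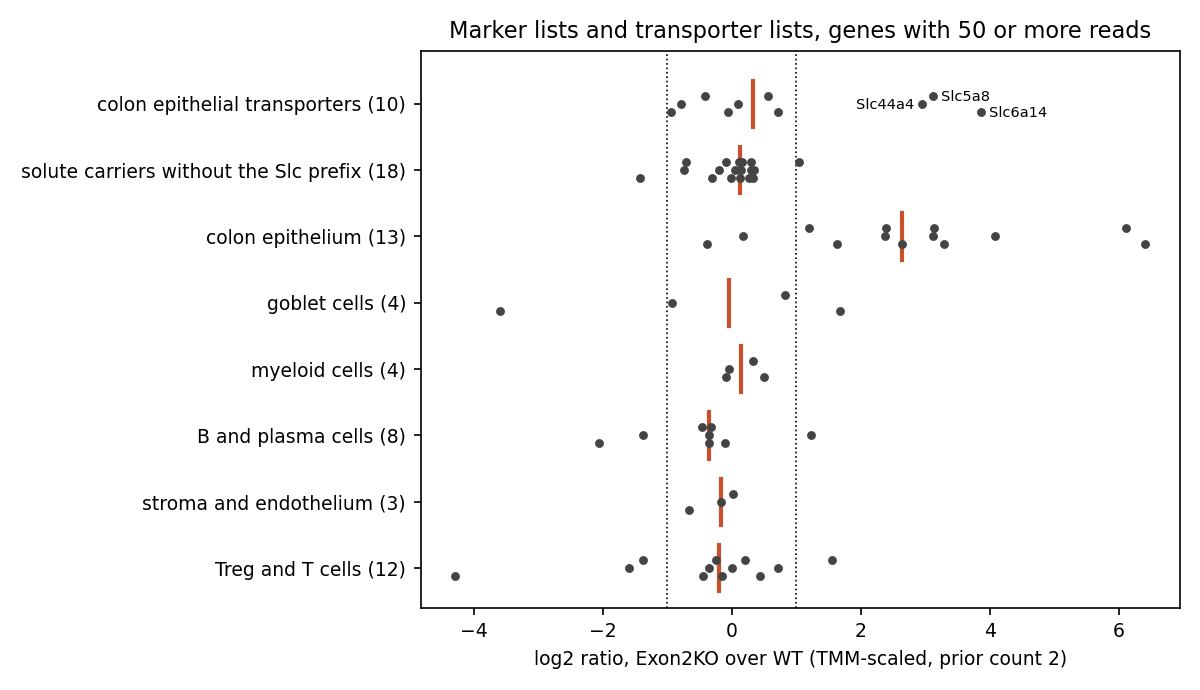
Log2 ratio of Exon2KO over WT (x axis) of the genes with 50 or more reads (points) in 6 lists of cell type markers and 2 lists of transporters (y axis, number of genes in brackets); orange bars are medians and dotted lines mark 2-fold. The epithelial markers have a median of 2.64 and the epithelial transporters one of 0.33, with 3 of 10 past 2-fold. Some genes of both lists passed the read minimum only through Exon2KO, where they are high, so these medians lean toward high ratios.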

How the data were processed

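Counts per gene of both libraries were taken as the authors deposited them. FPKM values, a scaled count signal, and log2 fold changes and p-values from the authors' own comparison are in the same deposited table; the scaled signal was not used. The submitters' processing notes name HISAT2 2.0.5, StringTie 1.3.3b, featureCounts 1.5.0-p3, DESeq2 1.16.1 and the build mm10 (GRCm38), without their roles. The use of strand is not given in the sources used here. The tool behind the deposited p-values is not given either.

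Library sizes were scaled with TMM factors of edgeR 4.0.16 in R 4.3.3 (0.964 for WT, 1.04 for Exon2KO), computed over all genes. Log2 ratios have a prior count of 2. The 95% interval of a ratio is the Clopper-Pearson interval for the Exon2KO share of a gene's reads, turned into a ratio without the prior count. CPM have exact Poisson intervals. Both cover counting error only, since several reads can stem from 1 molecule and no molecular identifiers are given. A quasi-likelihood test needs replicates, so members are called by fold alone (2-fold), and no p-value of a genotype effect is given. Alternatives were other scalings, read minimums, prior counts and fold thresholds, an exact binomial test of the reads of these 2 libraries, and the exact test of edgeR at assumed coefficients of variation between samples (BCV) of 0.2 and 0.4. The calculation was run on counts simulated with known folds and with counting error only. That checks the arithmetic and cannot speak to the spread between samples. Python 3.11.15, numpy 2.4.6, pandas 2.3.3 and scipy 1.17.1 were used.

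Substrate classes were set by family number, and in some families by single gene where members carry different substrates. The Slc35 family was kept whole. All 187 members are in GENCODE M21, 177 with identical coordinates. In it 56 members share exonic bases with another gene, 15 of them over 10%. The members and lists were chosen with earlier results of these data known. By rule, members were named that were past 2-fold with 100 reads or more in 1 library, were among the 15 with the highest FPKM, had the highest or lowest ratio of a class of 5 or more, or were on the epithelial transporter list (45 members). From the list of carriers without the Slc prefix, those past 2-fold and the 3 with the highest FPKM were named. Other members were named for their known roles or to complete a count, after their values were seen. The values of 2 members, 1 of them past 2-fold, are not reported here singly, and both are left out of the plots that name genes.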

Additional observations from a re-analysis of the deposited data

How the results depend on the processing

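The counts of 8 members higher and 12 lower depended most on the read minimum, the fold threshold and the assumed spread. With a read minimum of 10 they were 27 and 19 (232 genes, median log2 ratio 0.012), with no filter 37 and 32 (290 genes), and with 200 reads 2 and 5 (130 genes), since each tests other genes. A fold threshold of 1.5 gave 24 and 24, and one of 4 gave 3 and 4. Of the 20 members, 20 had an adjusted p-value below 0.05 in the exact binomial test with Benjamini-Hochberg adjustment, which compares these 2 libraries and not the genotypes. At an assumed BCV of 0.2, the exact test of edgeR called 3 members higher and 8 lower. At 0.4 it called 1 and 1, Slc6a14 and Slc7a10. Total counts moved the median of the members from -0.04 to 0.061, as that scaling implies, and gave 11 higher and 9 lower. The other scalings and the prior counts of 0.5 and 5 kept both counts within 1.5 times. Without the epithelial transporter list, an alternative chosen after the data were seen, 5 were higher and 12 lower. Ratios of 48 single members, the 20 past 2-fold included, were computed again with each scaling and prior count, and the 20 kept their direction in each. No paired analysis was possible because each genotype has 1 library, which also leaves no library to omit. Depth limits members with few reads: Slc7a10, at 0 reads in Exon2KO, has only a bound.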

Other observations

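A list of 33 solute carriers whose symbols lack the Slc prefix was read beside the members. Of the 32 in the table, 18 had 50 or more reads, with a median log2 ratio of 0.12, 1 past 2-fold higher and 1 lower. Over all 10602 protein-coding genes 3.98% were higher and 4.90% lower, so these counts are no result about the list. Xpr1, the phosphate exporter, had 232 reads in WT and 487 in Exon2KO (1.04, 0.81 to 1.27). Slco2b1, an organic anion carrier, had 460 and 173 (-1.43, -1.70 to -1.18). Ucp2, a mitochondrial carrier of the Slc25 type, had the highest FPKM, 107 in WT and 133 in Exon2KO (0.30, 0.26 to 0.34), and it was followed by Mpdu1 (37.4 and 39.0) and Mpc1, a subunit of the mitochondrial pyruvate carrier (26.7 and 30.0).

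Among the 103 Slc genes with 1 to 49 reads, 57 had a higher CPM in Exon2KO. Of the 14 of these genes on the epithelial transporter list, 12 did. The chloride-bicarbonate exchanger of colon epithelium, Slc26a3, had 4 reads in WT and 40 in Exon2KO (log2 ratio 2.79, 1.83 to 5.24), and the dicarboxylate carrier Slc13a2 had 6 and 31. Slc24a3 went the other way, with 31 and 4 reads, and Slc17a6 had 34 and 12. These genes lay below the read minimum and were named after their values were seen.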
